A study of Homo sapiens with 9 samples.

Results

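A set of 10 p53 and stress response genes was examined for binding of the RNA helicase DDX21 and the kinase CDK9. The chromatin came from A375, a melanoma cell line known to keep wild-type p53. The genes were CDKN1A, MDM2, BBC3, GADD45A, BTG2, SESN2, ATF3, TP53INP1, PLK3 and ZMAT3, and each was followed through all peaks that reached within 10 kb of 1 transcription start given for hg19. Of 27469 peaks in 6 lists, 11 met this rule. They lay within 10 kb of the starts of 5 of the 10 genes, which does not by itself assign them to those genes. The groups were 25 µM A771726 with nucleotides, 25 µM A771726 alone and DMSO, each for 24 h, with DDX21 and CDK9 immunoprecipitated from each. A771726, which the body forms from leflunomide, blocks dihydroorotate dehydrogenase, and cells need this enzyme to make pyrimidine nucleotides. The kind and dose of the added nucleotides are not given in the labels. Every group was 1 library of 1 cell line, so differences between treatments had no replicate error, and intervals below cover counting error only. The 9 samples of the series also included 3 inputs, which were not used here.

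The p53 protein is a transcription factor that is kept low by the ubiquitin ligase MDM2 and builds up under stress, including shortage of nucleotides. It then switches on genes for cell cycle arrest, apoptosis, repair and metabolic restraint. P-TEFb, whose kinase is CDK9, lets paused RNA polymerase II move into the gene body. DDX21 is a DEAD-box helicase of the nucleolus that also binds promoters read by RNA polymerase II, where it is known to take part in freeing P-TEFb from the inhibitory 7SK complex. The label of this gene group describes what the genes do in other settings. No RNA was measured here, so whether they were expressed or induced in these cells was not tested.

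The promoters of the 4 genes with a peak within 1 kb of the start are shown first, because these stretches lie at or next to the peaks described below. The sequences run 5′ to 3′ over the 250 bases before the start that RefSeq lists for GRCh38.p14, where 8 of the 10 genes had an entry, and for MDM2 and ZMAT3 the first entry was taken. The peaks are in hg19, so no base of a sequence was placed under a summit. Capitals mark CCAAT boxes, written CCAAT or on the other strand ATTGG, and GC boxes, written GGGCGG or on the other strand CCGCCC.
CDKN1A: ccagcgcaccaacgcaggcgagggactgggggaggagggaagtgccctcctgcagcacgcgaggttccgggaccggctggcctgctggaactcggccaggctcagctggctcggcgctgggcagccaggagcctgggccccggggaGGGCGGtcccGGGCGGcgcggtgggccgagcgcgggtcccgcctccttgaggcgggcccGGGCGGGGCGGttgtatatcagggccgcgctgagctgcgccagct
MDM2: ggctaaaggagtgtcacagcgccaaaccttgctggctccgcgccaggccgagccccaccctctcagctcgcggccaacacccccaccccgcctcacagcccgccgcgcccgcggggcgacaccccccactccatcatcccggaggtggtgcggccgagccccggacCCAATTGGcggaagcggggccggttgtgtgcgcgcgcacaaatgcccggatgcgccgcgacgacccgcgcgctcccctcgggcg
SESN2: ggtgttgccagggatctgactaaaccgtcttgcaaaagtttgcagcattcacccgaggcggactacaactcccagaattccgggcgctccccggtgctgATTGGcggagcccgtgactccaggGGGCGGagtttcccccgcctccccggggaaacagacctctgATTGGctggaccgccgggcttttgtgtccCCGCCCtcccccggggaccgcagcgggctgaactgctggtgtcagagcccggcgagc
ZMAT3: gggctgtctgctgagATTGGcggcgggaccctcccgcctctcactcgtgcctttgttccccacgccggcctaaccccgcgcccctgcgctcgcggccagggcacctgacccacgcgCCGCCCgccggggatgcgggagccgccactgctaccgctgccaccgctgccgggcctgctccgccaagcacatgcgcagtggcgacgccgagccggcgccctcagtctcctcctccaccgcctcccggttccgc

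The CDKN1A stretch held 4 GC boxes, of which the last 2 overlap by a base, and no CCAAT box. MDM2 had no GC box and 2 CCAAT matches, which are the strands of a single palindrome and overlap. SESN2 held 2 CCAAT boxes and 2 GC boxes, and ZMAT3 held 1 of each. Among 35116 listed promoter stretches of the same length, 32.0% held a CCAAT box and 42.6% a GC box on either strand. The letters TATAAA, found in 10.7% of all stretches, were in none of these 4. A p53 half-site by its consensus was also in none of the 4, against 5.57% of all stretches, and nothing follows from this about p53 itself, whose known elements at CDKN1A and in the first intron of MDM2 lie outside these windows.

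DDX21 and CDK9 were listed near the starts of different genes of the group. DDX21 peaks lay at MDM2, SESN2 and ZMAT3 with A771726 and nucleotides and at SESN2 alone with A771726. In DMSO they lay at MDM2 and SESN2 and within 10 kb of the PLK3 start. CDK9 peaks lay at CDKN1A only, with 0 peaks when nucleotides were added, 3 with A771726 and 1 in DMSO. No gene had peaks of both proteins within 10 kb, under any treatment. As CDK9 had peaks near only 1 of the 10 starts, this rests on that gene alone. The share of all gene starts with both proteins within 10 kb was not counted, so the 0 has nothing to be set against. Only the narrower measure, overlap of single peaks, can be set beside whole lists. BBC3, GADD45A, BTG2, ATF3 and TP53INP1 had no peak of either protein in that window. At CDKN1A the CDK9 peaks were therefore on no DDX21 peak, 0 of 3 with A771726 and 0 of 1 in DMSO, where 15.5% and 17.8% of all CDK9 peaks in those treatments overlapped one. With so few peaks the exact binomial 95% upper limits are 70.8% and 97.5%. The 3 A771726 peaks lie in 1 stretch of 765 bp, so they are not independent and the limit of 70.8% is too low.

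**Figure D1:**
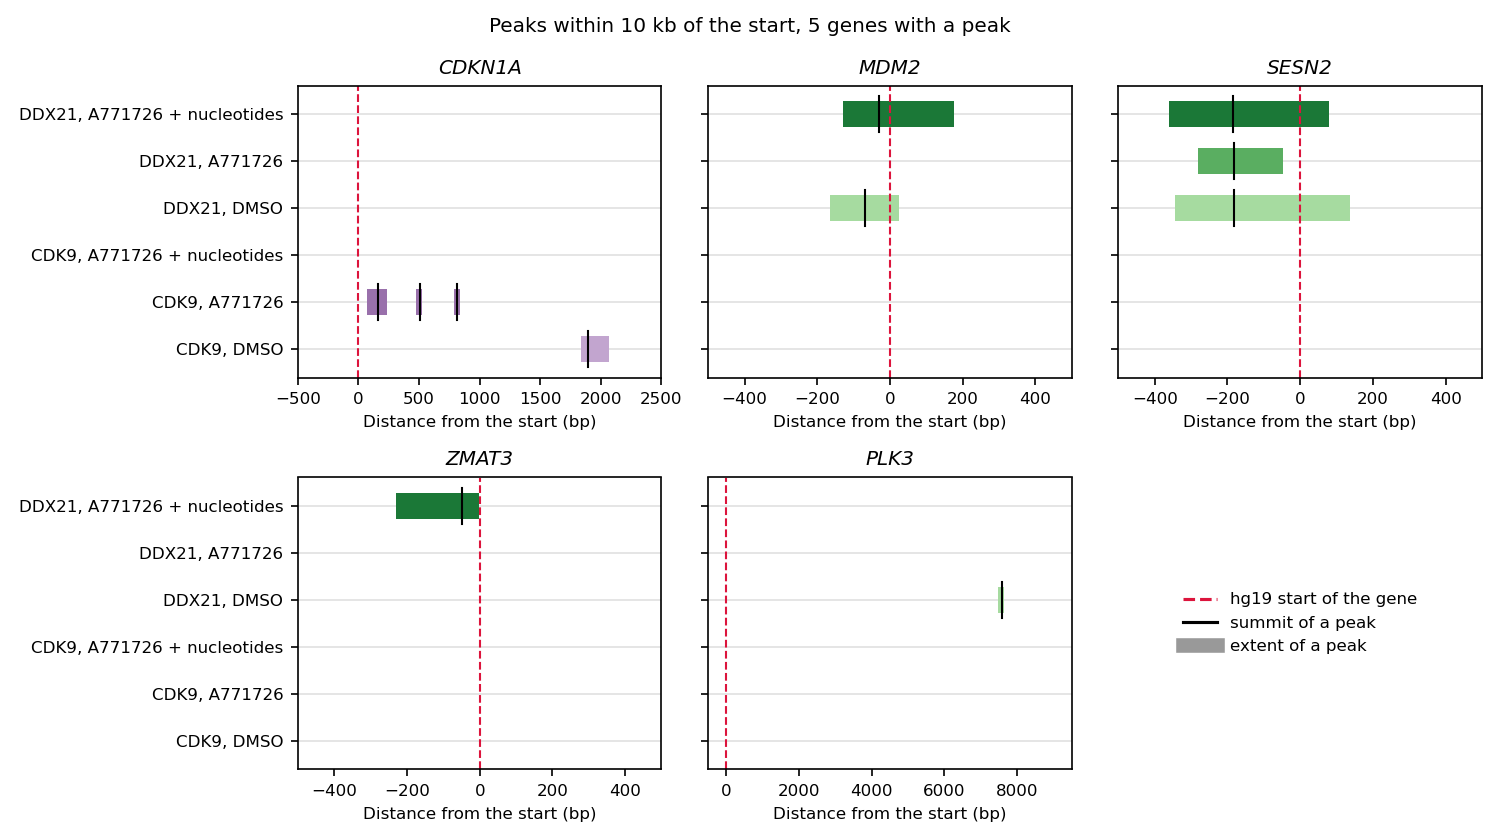
Position of every peak within 10 kb of the start of the 5 genes that had one, by list, with distance from the hg19 start in bp on the x axis (negative is upstream; the scale differs between panels). Bars are peaks and black ticks their summits: the 3 CDK9 peaks with A771726 lie within the first 835 bp of CDKN1A, and the DDX21 peaks of SESN2 share a summit near -182 bp.

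CDKN1A encodes p21, the inhibitor of cyclin-dependent kinases that arrests the cell cycle and is a classic target of p53. Its start is on chromosome 6 at 36646459 (hg19, plus strand). With A771726, 3 CDK9 peaks followed each other just downstream of the start, from 36646530 to 36646693, from 36646936 to 36646985 and from 36647245 to 36647294. Their summits were 164, 507 and 810 bp into the gene. In DMSO the single CDK9 peak ran from 36648292 to 36648526, with its summit at 1897 bp. With A771726 and nucleotides no CDK9 peak was closer than 2434371 bp. All these positions are inside the transcribed region, which extends 8618 bp beyond the start that RefSeq lists for GRCh38. The A771726 peaks were thus nearer to the start than the DMSO peak, and the groups did not overlap in position, with 997 bp between them.

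The authors' peak caller gave the 3 CDK9 peaks of A771726 cells fold enrichments over local background of 5.64, 6.44 and 6.47 and −log10 q values of 4.07, 4.33 and 4.37, and the DMSO peak 5.28 and 5.41. The numbers of fragments stacked over the summits (pileup, worked out from the deposited values) were 14 (exact Poisson 95% interval 7.65 to 23.5), 11 (5.49 to 19.7) and 11 (5.49 to 19.7) with A771726, against 16 (9.15 to 26.0) in DMSO. These are counts near the middle of the A771726 list, whose median pileup was 15, and somewhat under the DMSO median of 23. They are not scaled. Divided by the lowest background of each list, they became 26.9, 21.1 and 21.1 with A771726 and 13.7 in DMSO. Which treatment had the higher peak thus depends on the scale. By −log10 q the A771726 peaks ranked 172, 159 and 157 of 290, and the DMSO peak 1836 of 3462. They are thus middling peaks of both lists, resting on few fragments.

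At the authors' threshold, CDK9 peaks at CDKN1A numbered 3 with A771726 and 1 in DMSO, from lists of 290 and 3462 peaks. With a −log10 q of at least 5 the direction turned, to 0 with A771726 and 1 in DMSO. The peak caller's Poisson −log10 p values were close, at 9.49, 9.80 and 9.84 with A771726 and 9.58 in DMSO. The same −log10 q cut thus fell at a different −log10 p in each list. None of the 3 A771726 peaks overlapped a DMSO peak, which was so for 22.4% of the whole A771726 list, and none overlapped a CDK9 peak found with nucleotides, where 76.6% of the whole list did. The 3 lie in 1 stretch, so they do not count as 3 separate cases. More A771726 than DMSO peaks within 10 kb of the summit were found around 26.6% of all CDK9 peaks of the A771726 list. Conversely, the DMSO peak at CDKN1A had no overlapping peak with nucleotides or with A771726, as against 45.2% and 5.40% of all CDK9 DMSO peaks that had one. Tight runs of CDK9 peaks were then counted, a step chosen after the peaks at CDKN1A were seen. The A771726 list held 22 runs of at least 3 peaks with gaps of at most 1 kb, and in 20 of them at least 1 peak lay on a DMSO peak. The run at CDKN1A, 765 bp long, was 1 of the 2 in which none did. The other was on chromosome 2 from 224889151 to 224890371.

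The number 3 depends on how finely the enriched stretch was cut. The shortest peak of the A771726 CDK9 list was 50 bp, against 128 bp in DMSO, and 2 of the 3 peaks at CDKN1A had exactly that width, while the other was 164 bp and the DMSO peak 235 bp. Gaps between the 3 were 242 and 259 bp, so merging peaks within 1 kb leaves 1. Whether CDK9 was absent from the start of CDKN1A in DMSO is not settled by the lists. At the local background there, carried over to the DMSO library, a summit needed 14, 10 and 10 fragments to reach the lowest −log10 p of the DMSO list. The A771726 pileups correspond to 31.5, 24.7 and 24.7 DMSO fragments when scaled by background, and to 12.3, 9.66 and 9.66 when scaled by estimated tags alone. The needed counts use the background scaled by background in both cases, because a background grows with fragment length while the pileup of a narrow site need not. Set against them, the first scaling is above the limit and the second just below. For the DMSO peak in the A771726 library the values were 7.12 and 18.2 against 9 needed. In the CDK9 library with nucleotides the A771726 pileups correspond to 33.4, 26.3 and 26.3 fragments scaled by background. Scaled by tags they correspond to 13.0, 10.2 and 10.2, close to the 14, 10 and 10 needed. The DMSO peak corresponds there to 17.0 and 16.9, against 11 needed. Whether CDK9 was absent from the first 3 sites with nucleotides is thus not settled either.

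**Figure D2:**
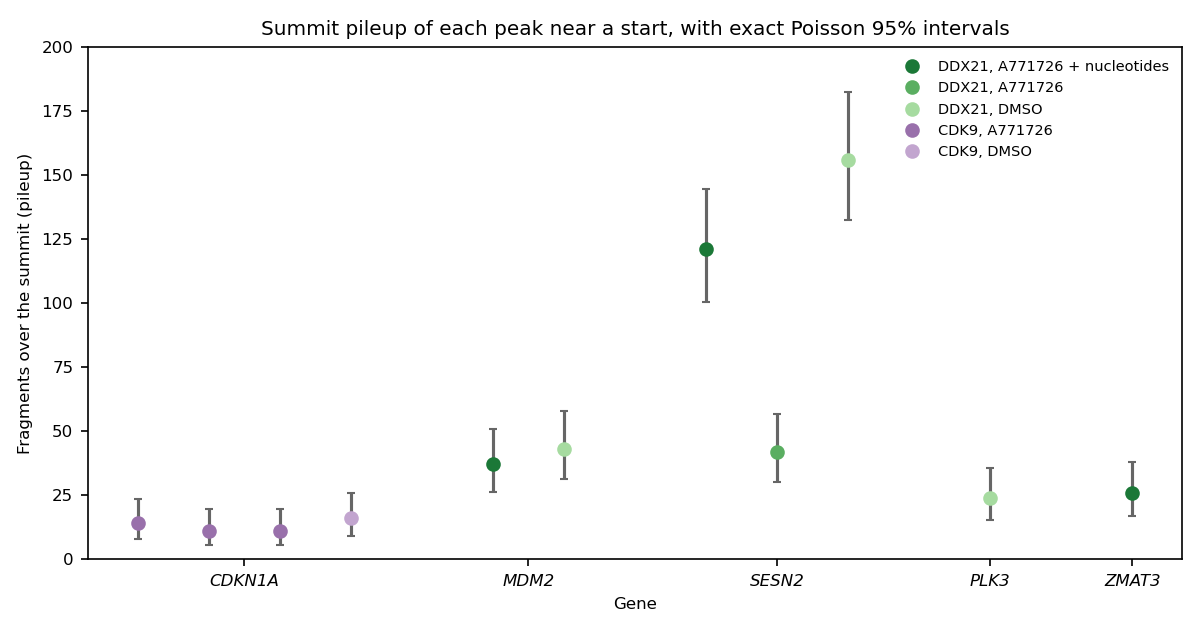
Number of fragments over the summit of each of the 11 peaks (y axis, linear), by gene and list, with exact Poisson 95% intervals as bars. The counts are not scaled for depth or fragment length. At SESN2 the DDX21 pileup was 121 with A771726 and nucleotides, 42 with A771726 and 156 in DMSO, while the CDK9 peaks of CDKN1A were between 11 and 16.

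SESN2 encodes sestrin 2, a stress protein that restrains the growth kinase complex mTORC1. It was the only gene of the group with a DDX21 peak within 10 kb in all 3 lists. Its start is on chromosome 1 at 28586038 (plus strand). The DDX21 peak ran from 28585677 to 28586116 with A771726 and nucleotides, from 28585757 to 28585990 with A771726, and from 28585693 to 28586173 in DMSO. The summits lay at -184, -182 and -182 bp from the start, so the position was the same to within 2 bp. Widths were 440, 234 and 481 bp. With A771726 the peak ended at -48 bp, short of the start, whereas with nucleotides and in DMSO it covered it.

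The pileup over the SESN2 summit was 121 fragments (100.4 to 144.6) with A771726 and nucleotides, 42 (30.3 to 56.8) with A771726, and 156 (132.5 to 182.5) in DMSO. The A771726 interval lies apart from both others, which overlap. Fold enrichments in the deposited lists were 15.97, 6.52 and 17.6. Pileups were then divided by each library's lowest background, which grows with depth and also with fragment length. On that scale the height with A771726 was 0.281 times that in DMSO, a log2 ratio of -1.83 (-2.36 to -1.33). Over the 4253 DDX21 DMSO peaks with an A771726 peak the median log2 ratio was -1.26 (quartiles -1.52 and -0.97), and 91.3% were lower by more than 1.5-fold. SESN2 was lower than most of them, with 7.41% of these sites below it, and a lower height by itself is what nearly all shared sites showed. With nucleotides the log2 ratio to DMSO was -0.22 (-0.58 to 0.13), beside a median of 0.06 over 7180 shared sites. By rank of −log10 q the peak was 2174 of 7922 with nucleotides, 2694 of 4375 with A771726 and 1850 of 8321 in DMSO.

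MDM2 encodes the ubiquitin ligase that degrades p53 and is itself switched on by p53. Its start is on chromosome 12 at 69201971 (plus strand). DDX21 covered it from 69201841 to 69202147 with A771726 and nucleotides and from 69201805 to 69201994 in DMSO, and the A771726 list had no peak closer than 61972 bp. Summits were at -30 and -68 bp from the start. Pileups were 37 fragments (26.1 to 51.0) with nucleotides and 43 (31.1 to 57.9) in DMSO, over backgrounds of 6.64 and 4.24. The scaled heights differed by a log2 ratio of -0.07 (-0.75 to 0.60), an interval that includes no difference, whereas the deposited fold enrichments of 4.97 and 8.40 differed by -0.76, and the local background was the higher one with nucleotides. MDM2 is known to have a second, p53-responsive promoter in its first intron, and RefSeq lists starts for MDM2 over 852 bp. The DDX21 peaks ended 176 and 23 bp after the upstream start, so they lay at the first promoter.

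Of the 3 DDX21 DMSO peaks near the 10 starts, 2 had a counterpart with nucleotides, which is 66.7% (9.43 to 99.2), and 1 had a counterpart with A771726, or 33.3% (0.840 to 90.6). The whole DMSO list had 86.3% and 51.1%. Both are inside these intervals, but with 3 peaks nearly any share would be, so nothing follows from it. To be listed with A771726, a summit over the background of the MDM2 site needed 15 fragments when the DMSO background was carried over. With the background of the list with nucleotides carried over it needed 20. The DMSO pileup corresponds to 41.2 fragments in that library scaled by background, or 45.5 scaled by tags, if the height did not differ. At the median ratio of shared sites, 0.418 times DMSO, it corresponds to 17.2, which lies between 15 and 20. Sites with no A771726 peak are left out of that median.

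PLK3, a polo-like kinase of the stress response, and ZMAT3, a zinc finger RNA-binding protein and p53 target, each had a single weak DDX21 peak. At PLK3 it was in DMSO, on chromosome 1 from 45273500 to 45273684, with its summit 7581 bp downstream of the start. PLK3 itself is 5614 bp long in the RefSeq table of GRCh38. There the neighbouring DYNLT4 spans 5516 to 6974 bp from the PLK3 start, and the nearer edge of BTBD19 is at 8146 bp. These are coordinates without regard to strand. If the distances are the same in hg19, the peak lay between DYNLT4 and BTBD19. At ZMAT3, on the minus strand of chromosome 3 with its start at 178789571, it was in the list with nucleotides, from 178789575 to 178789802, with its summit at -49 bp. The pileups were 26 (17.0 to 38.1) at ZMAT3 and 24 (15.4 to 35.7) at PLK3, with −log10 q of 3.42 and 3.63. Only 2.68% and 3.20% of the peaks in their lists had a lower −log10 q. Scaled by background, the ZMAT3 pileup corresponds to 28.7 DMSO fragments where 23 were needed, and the PLK3 pileup to 21.7 fragments with nucleotides where 19 were needed. With A771726 they correspond to 27.5 fragments at ZMAT3 where 24 were needed and 23.0 at PLK3 where 20 were needed. Equal heights would thus stand only slightly above the limits, and both lower Poisson limits are under them, so a missing peak in the other lists does not by itself show a difference. In the whole list with nucleotides, 90.0% of DDX21 peaks overlapped a DMSO peak, and near the 10 starts 2 of 3 did.

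**Figure D3:**
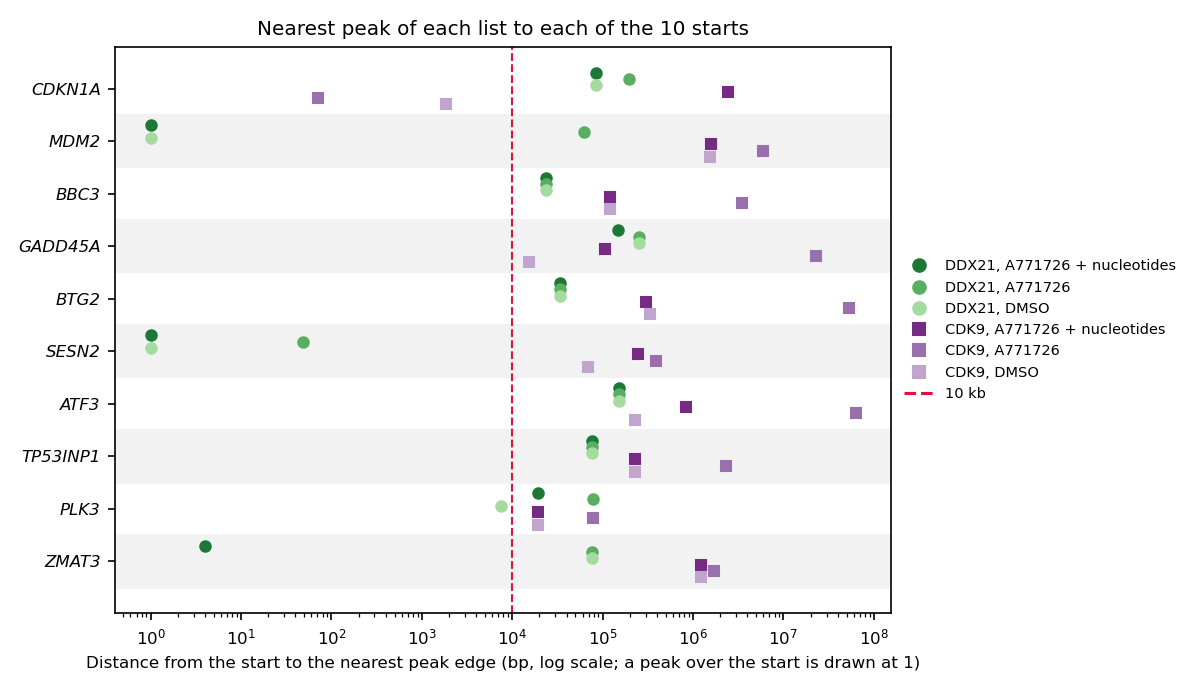
Distance from each of the 10 starts to the nearest edge of a peak in each list, on a log axis in bp, with a peak over the start drawn at 1. Circles are DDX21, squares are CDK9, and the dashed line is the 10 kb limit: 5 genes have points left of it, from CDK9 at CDKN1A and from DDX21 at the other 4.

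The remaining genes had their nearest peaks well outside the window. BBC3 encodes the pro-apoptotic protein PUMA, and its nearest DDX21 peaks began 23552, 23653 and 23574 bp upstream with A771726 and nucleotides, with A771726 and in DMSO. BTG2, an antiproliferative gene, had its nearest DDX21 peaks 34149, 34183 and 34157 bp upstream. GADD45A, a growth arrest and DNA damage gene, had a CDK9 DMSO peak from 68166434 to 68166576 on chromosome 1, at 15551 bp from the start the nearest of all peaks outside the 10 kb limit, with a pileup of 21 and a fold enrichment of 5.36. The farthest peak inside it was that of PLK3, at 7464 bp with 24 fragments and 3.05. TP53INP1, a p53-induced regulator of apoptosis and autophagy, had no DDX21 peak closer than 75467 bp and no CDK9 peak closer than 229371 bp. ATF3 encodes a transcription factor induced by many stresses. Its nearest DDX21 peaks were 150138, 150233 and 150193 bp away, and RefSeq lists 2 starts for it 49611 bp apart, so no peak was within 10 kb of either.

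In DMSO, 5 DDX21 sites lay 10 to 50 kb from these starts, and 3 of them had an A771726 peak, beside 51.1% of all DDX21 DMSO peaks. Upstream of BBC3 the pileup was 114 fragments with nucleotides, 55 with A771726 and 129 in DMSO, and the log2 height ratio of A771726 to DMSO was -1.17 (-1.65 to -0.70). Upstream of BTG2 the pileups were 167, 82 and 191 and the ratio -1.16 (-1.55 to -0.78). A second site upstream of SESN2, with its DMSO summit at -26504 bp, had 68, 22 and 71 fragments and a ratio of -1.63 (-2.39 to -0.92). At these 3 sites the A771726 pileup was lower than both others. Nearly all shared sites were lower as well, 91.3% of them by more than 1.5-fold, with a median log2 ratio of -1.26. The other 2 sites flanked PLK3 and had no A771726 peak, with DMSO summits at -24858 and 19409 bp. Their pileups were 74 and 35 fragments with nucleotides and 86 and 33 in DMSO. At all 5 sites the log2 height ratio of nucleotides to DMSO had an interval that includes 0. These sites may belong to other genes, since no hg19 annotation was at hand to assign them.

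**Figure D4:**
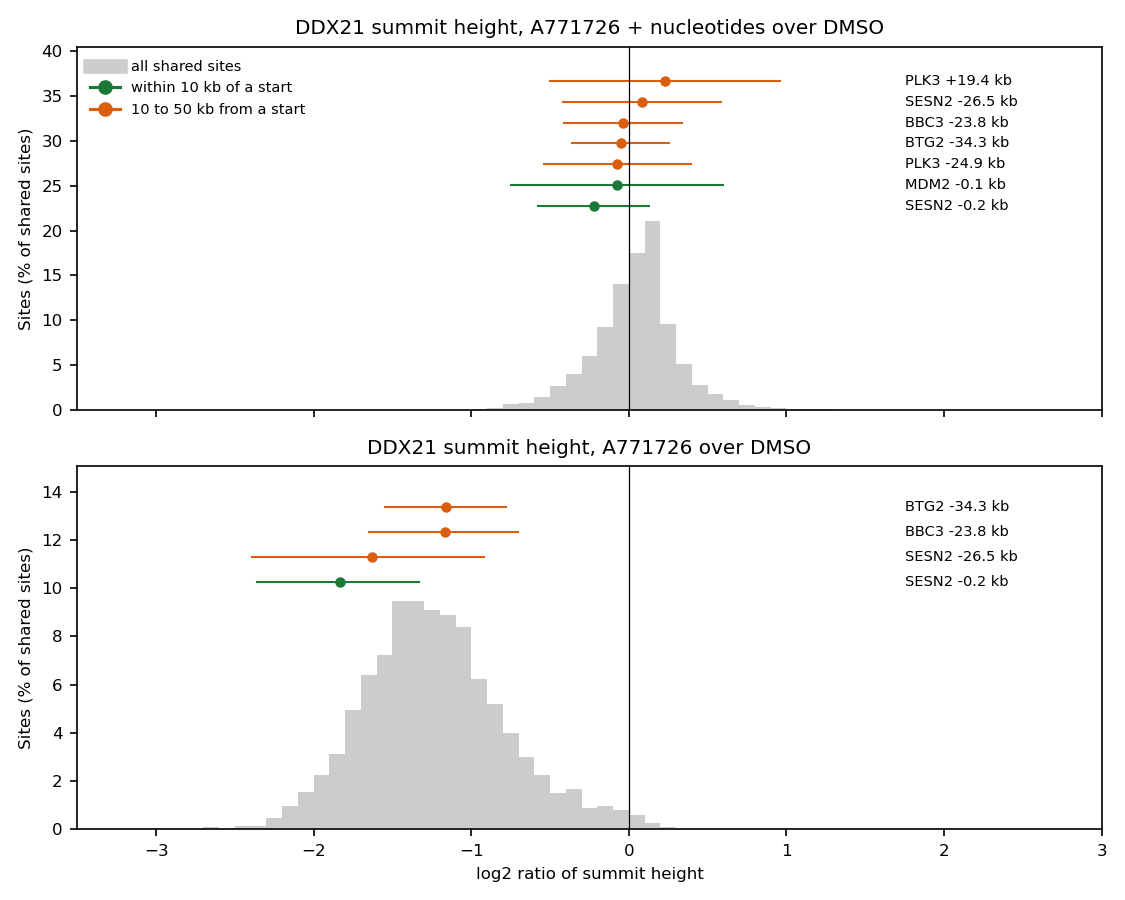
Log2 ratio of DDX21 summit height to DMSO with A771726 and nucleotides (top) and with A771726 (bottom), as a histogram over all sites shared with DMSO (grey, in percent of sites). Points with exact 95% intervals are sites within 10 kb (green) or 10 to 50 kb (orange) of a start: with A771726 the 4 sites lie between -1.83 and -1.16, and with nucleotides the 7 sites lie between -0.22 and 0.23.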

How the data were processed

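DDX21 and CDK9 were immunoprecipitated from A375 cells under 3 treatments and samples were grouped by their titles. Per the submitters' processing notes, the tools were Bowtie and MACS2 2.0 and the build hg19; their settings and the control are not given there. Each deposited peak list belongs to 1 library and gives a fold enrichment (a ratio to local background), a −log10 p-value and also a −log10 q-value, used here, and a score, which equals 10 times −log10 q rounded down. The lowest −log10 q was just above 1.30 in every list.

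The 10 genes and the comparisons were chosen with earlier results of these data known. All 10 genes are named. Peaks counted when any base lay within 10 kb of the start, and as shared when overlapping by at least 1 bp. Pileup was recovered as the whole number that met the deposited fold enrichment, (pileup + 1)/(background + 1), and a Poisson −log10 p, within 0.001 for 100% of peaks. Tested on 1000 simulated pileups per list, the step gave back 100% for 4 lists and 99.9% for CDK9 with nucleotides and in DMSO. Height is pileup over the lowest background of the list. Tags, estimated as lowest background over shortest peak, were 0.884 and 1.06 of DMSO for DDX21 with nucleotides and with A771726, and 1.05 and 1.14 for CDK9; read totals are not given in the labels. Python 3.11.15 and scipy 1.17.1 were used. No p-value was computed, since there was 1 library per group. Gene lists beyond the 10 were not counted, because the only gene table used here is of GRCh38. Strands not listed there, for GADD45A and TP53INP1, are from general knowledge.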

Additional observations from a re-analysis of the deposited data

Results flagged for a closer look

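Under the same contrast, A771726 against DMSO, the number of peaks near the 10 starts went opposite ways for the proteins. CDK9 had 3 peaks with A771726 and 1 in DMSO, a difference of 2, all at CDKN1A, from lists of 290 and 3462 peaks. DDX21 had 1 and 3, a difference of -2, from lists of 4375 and 8321 peaks; MDM2 and PLK3 had a DMSO peak and no A771726 peak. The contrast did not hold at several other settings. With a −log10 q of at least 5, a cut at unlike −log10 p in the lists, CDK9 had 0 peaks with A771726 and 1 in DMSO. Within 50 kb it had 3 and 3, and with lists of equal length DDX21 had 1 and 1. The CDK9 part alone stood at 3 and 0 with lists of equal length and within 1 kb, but both outcomes were fixed in advance. The A771726 list, with 290 peaks, is not shortened by the first cut. The DMSO peak ranks 1836 of 3462 and begins 1833 bp from the start, so each setting had to drop it. The difference between the antibodies was not tested, since each group is 1 library. The CDK9 peaks were cut more finely with A771726, with a shortest peak of 50 bp against 128 bp in DMSO, and its part in the count was not tested beyond merging, which leaves 1 peak in each treatment.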

How the results depend on the processing

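Altogether 113 alternative values were computed for 20 results, 107 of them planned. For 88 the value was inside the reported interval (for counts, inside 1.5 times), 25 moved and 0 reversed. Only height ratios past 1.5-fold could be labelled reversed, so for counts and shares this 0 was fixed in advance. Intervals of shares are wide, such as 0.840 to 90.6, so a share inside its interval says little. With a window of 50 kb, genes with a DDX21 peak were 6 with nucleotides, 3 with A771726 and 5 in DMSO, with 8, 4 and 8 peaks, and for CDK9 there was 1 gene and 1 peak with nucleotides and 3 genes and 3 peaks in DMSO. With a window of 1 kb CDK9 in DMSO had 0 genes and 0 peaks, and 100% of DDX21 DMSO peaks had a peak with nucleotides. With a −log10 q of at least 5 CDK9 with A771726 had 0 genes and 0 peaks while the DMSO peak at CDKN1A stayed, so the direction there turned. For CDK9 that cut fell at a different −log10 p in each list. At the same −log10 q cut the share of DDX21 DMSO peaks with a peak with nucleotides was 100%. When lists were cut to equal length, 4375 top peaks for DDX21 and 290 for CDK9, DDX21 had 1 gene and 1 peak with nucleotides and in DMSO, CDK9 in DMSO had 0 and 0, and the share of DDX21 DMSO peaks found was 100% with A771726 and 100% with nucleotides, from 1 peak. Merging peaks within 1 kb, chosen after the data were seen, left 1 CDK9 peak with A771726. Height ratios could not be formed for CDK9, which had no shared peak near a start. No paired analysis was possible because each group has 1 library and the labels give no replicate numbers. Depth limits the list of weak sites: at the lowest background, 7 or 8 fragments were needed in every list.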

Other observations

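Outside the 10 kb window, 1 site near PLK3 carried both proteins. It lay on chromosome 1 about 19.4 kb downstream of the PLK3 start. DDX21 covered it from 45285328 to 45285522 with A771726 and nucleotides and from 45285266 to 45285661 in DMSO, and CDK9 from 45285323 to 45285634 and from 45285171 to 45285637. Pileups were 35 with nucleotides and 33 in DMSO for DDX21, and 33 and 37 for CDK9. With A771726 neither list had a peak there, and the nearest peaks to the PLK3 start were 78473 bp away for DDX21 and 78591 bp for CDK9. Of all DMSO peaks, only 51.1% for DDX21 and 5.40% for CDK9 had an A771726 peak, so a missing peak is common. The DDX21 peak in DMSO was weak, at rank 7259 of 8321. Of all CDK9 DMSO peaks, 17.8% overlapped a DDX21 DMSO peak. The site was picked after the peaks were seen. Which gene the site belongs to was not examined.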
